A study of Homo sapiens with 4 samples.

Results

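The Krüppel-like factors described here are 10 genes, KLF2, KLF3, KLF4, KLF5, KLF6, KLF7, KLF9, KLF10, KLF11 and KLF13, of 56271 rows in a table of RNA sequencing counts from SKBR3 cells. They were taken by gene symbol, and the family was selected on a value of these same libraries, the position of KLF2 among the strongest decreases in cells overexpressing VIRMA. SKBR3 is an established HER2-positive breast cancer line. The eGFP control group (n = 2 libraries) carried a lentiviral vector in which the ubiquitin C promoter drives eGFP, and the VIRMA-overexpressing group (n = 2 libraries) a vector of the same backbone for HA-tagged VIRMA joined to eGFP by a cleavable peptide; the study's methods name full-length VIRMA for this vector, while the labels give VIRMA alone. In both groups the cells expressing eGFP were sorted and expanded, so each group is a sorted population rather than a clone, and differences between these populations that do not come from VIRMA cannot be told apart from those that do. The labels attach the same low-oxygen culture protocol to all 4 libraries, while the study describes low oxygen only for other assays, so at which oxygen level the cells grew is uncertain, though the labels give both groups the same. The libraries of the groups are called eGFP libraries and VIRMA libraries below. The comparison addresses which transcripts differ when VIRMA, which holds together the enzyme complex for N6-methyladenosine (m6A) in RNA, is raised.

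Krüppel-like factors are transcription factors that bind GC-rich and CACCC sequences through zinc fingers at the carboxyl end of the protein, which are closely alike across the family, while the amino end differs and recruits either activators or repressors. KLF3, KLF8 and KLF12 bind the corepressor CtBP. KLF2, KLF4, KLF5, KLF6 and KLF7 act largely as activators, and KLF9, KLF10, KLF11, KLF13, KLF14 and KLF16 bind the corepressor SIN3A. In epithelia, KLF4 is known for differentiation and growth arrest and KLF5 for proliferation, and KLF2, KLF4, KLF6 and KLF10 are among the genes that growth factors, shear stress or cytokines induce rapidly and whose transcripts are short-lived.

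The libraries held 81446932 to 86375474 counts. VIRMA, listed under its older symbol KIAA1429, was at 0.793 and 0.757 RPKM in the eGFP libraries and at 3.73 and 3.84 RPKM in the VIRMA libraries, 4.89-fold higher. RPKM here is the count divided by the exonic length and by the library size after TMM scaling, so that it can be compared between genes as well as between libraries. ERBB2, which encodes HER2, was at 680 ± 11.3 RPKM in the eGFP libraries and 679 ± 0.0771 RPKM in the VIRMA libraries (SD, n = 2), and all 6 listed markers of SKBR3 cells passed the filter on low values used below. The other 5 markers were not level between the groups: on the log2 scale KRT8 (-0.51, edgeR adjusted p 1.7e-22), EPCAM (-0.39, edgeR adjusted p 4.43e-12) and KRT19 (-0.12, edgeR adjusted p 3.49e-06) fell, and GRB7 (0.43, edgeR adjusted p 1.11e-16) and KRT18 (0.08, edgeR adjusted p 0.00317) rose. Replicates differed by more than sampling noise, with a chi-square per degree of freedom of 7.87 in the eGFP libraries and 6.18 in the VIRMA-overexpressing group. In these bulk libraries, fewer cells expressing a gene and less RNA per cell cannot be told apart.

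All 10 KLF genes passed the filter on low values, an RPKM above 1 in at least 2 libraries. KLF2 was the most abundant KLF transcript in the eGFP libraries and was 5.79-fold lower in the VIRMA libraries. KLF6, KLF11, KLF13 and KLF10 were lower by smaller amounts, and KLF3, KLF4, KLF7 and KLF9 were higher. KLF5 was at nearly the same level in both groups. Called genes are those with an adjusted p below 0.05 in the quasi-likelihood test of edgeR over all 12205 tested genes. By this rule 5 KLF genes were called lower, where 35.9% of all tested genes were, and 4 were called higher, where 35.1% of all tested genes were. KLF2 alone also had a log2 fold change below -1, as did 2.93% of all tested genes, and 0 KLF genes had a log2 fold change above 1, against 4.52% of all tested genes. Since the family was picked on this contrast, nothing is read from these counts and the differences of its members are given without a p-value. The median log2 fold change was -0.11 over the 10 genes and 0.01 over all tested genes.

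**Figure D1:**
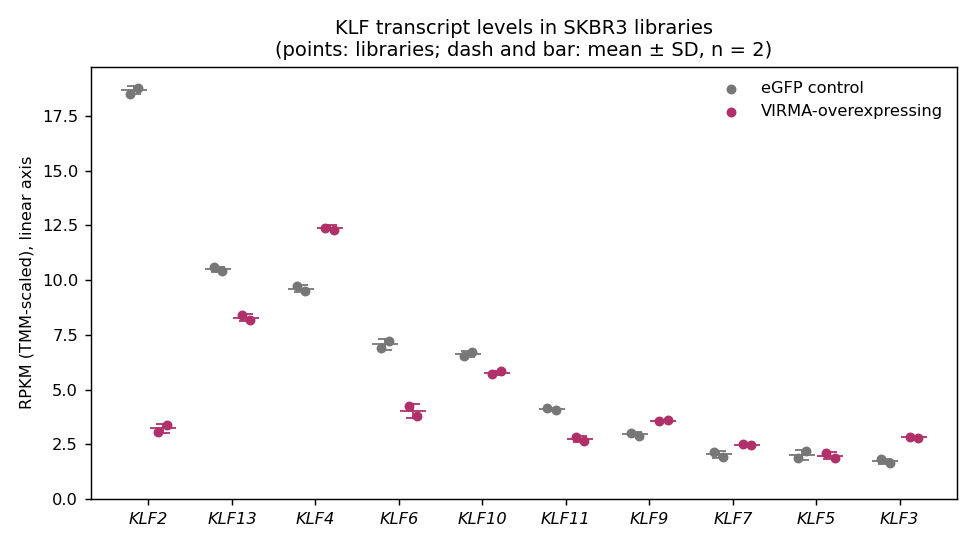
RPKM (vertical axis, linear) of the 10 KLF genes, ordered by their control mean. Points are libraries, dashes and bars the mean ± SD of 2 libraries, grey for eGFP control and magenta for VIRMA-overexpressing. KLF2 lies at 18.5 and 18.8 RPKM in the eGFP libraries and at 3.08 and 3.36 in the VIRMA libraries, and the groups overlap for KLF5 alone.

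The promoters of the family were read from RefSeq (GRCh38.p14) as the 250 bases before each annotated start, with 13 such windows for 8 of the 10 genes and 35116 windows in all. Their GC content ran from 32.4% in KLF9 to 80% in KLF2, where the median window had 58%. The sequences of KLF2 and KLF6, the most decreased of the activators, and of KLF4, which was higher, are shown because these are the members whose levels, given next, lay farthest apart among the activators. Capitals mark the match to the MEF2 element in KLF2, the CCAAT boxes (on the other strand) and the E box CACGTG in KLF6, and the E box in KLF4. The stretches lie at chr19:16324576-16324816 on the plus strand, chr10:3785282-3785459 on the minus strand and chr9:107489770-107490019 on the minus strand. Each is written 5′ to 3′ along its gene and ends where the window ends or where an exon of the deposited gene model begins, after 241 bases for KLF2, 178 for KLF6 and 250 for KLF4. The KLF4 stretch lies in an intron of a deposited transcript that starts farther upstream.
KLF2: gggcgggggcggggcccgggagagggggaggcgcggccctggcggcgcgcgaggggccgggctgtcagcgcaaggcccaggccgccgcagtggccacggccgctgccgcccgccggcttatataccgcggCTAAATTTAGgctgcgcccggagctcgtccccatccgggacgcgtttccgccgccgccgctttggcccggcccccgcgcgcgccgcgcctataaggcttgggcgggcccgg
KLF6: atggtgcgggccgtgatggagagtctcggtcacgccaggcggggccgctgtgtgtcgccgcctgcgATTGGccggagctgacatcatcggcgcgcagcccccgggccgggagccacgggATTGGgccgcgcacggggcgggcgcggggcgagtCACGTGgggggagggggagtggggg
KLF4: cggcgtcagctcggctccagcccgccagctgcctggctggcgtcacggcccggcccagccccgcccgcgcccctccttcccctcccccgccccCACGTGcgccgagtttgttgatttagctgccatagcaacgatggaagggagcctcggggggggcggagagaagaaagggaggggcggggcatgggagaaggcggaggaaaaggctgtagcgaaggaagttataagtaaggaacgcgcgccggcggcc

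The MEF2 element, the site of the MEF2 factors through which the kinase ERK5 (MAPK7) is known to act on KLF2, was searched on both strands by its consensus. It lay 120 to 111 bases before the start of KLF2, in 1 of the 8 KLF genes with a window and in 2.8% of all windows. The E box CACGTG was found in KLF4, KLF6, KLF7 and KLF11, so in 4 of 8 genes, and in 6.34% of all windows; genes with several starts, such as KLF7 and KLF11, had several windows in which to hold it. The CCAAT box was found in 5 of the 8 genes and 32% of windows, the GC box GGGCGG in 7 and 42.6%, and CACCC, the site of the KLF proteins themselves, in 4 and 54.7%. The CRE TGACGTCA was found in KLF11 (1.65% of windows), TATAAA in KLF5 (10.7%) and the CArG box, the site of serum response factor, in KLF7 (1.16%). The AP-1 site TGANTCA (6.57% of windows) and TGATGNAA, an element bound by ATF4 with C/EBP factors (3.14% of windows), were in 0 of the 8 genes. All motifs were searched on both strands, and matches of the GC-rich motifs can overlap each other. A match is a description of these letters and not a site in use.

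KLF2, a factor best known from quiescent endothelium and naive lymphocytes, is a short gene on chromosome 19 (GRCh38, 16324817 to 16327874, plus strand). It had 3109 and 3175 counts in the eGFP libraries and 533 and 567 counts in the VIRMA libraries. Its level was 18.5 and 18.8 RPKM in the eGFP libraries against 3.08 and 3.36 RPKM. Both VIRMA libraries were far below both eGFP libraries, and the distance between the groups was many times that between replicates. The log2 fold change was -2.53 (SE 0.0734), the 11th lowest of 12205. In the eGFP libraries 18.7% of tested genes had a higher RPKM than KLF2. The deposited model of KLF2 has 2018 exonic bases, while its canonical transcript in GENCODE 44 has 2820, so its RPKM rests on the shorter model.

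KLF6, an early-response gene with tumour suppressor activity, lies on chromosome 10 (3775996 to 3785281, minus strand). It was at 6.9 and 7.23 RPKM in the eGFP libraries and at 4.24 and 3.79 RPKM in the VIRMA libraries. The groups did not overlap, and the log2 fold change was -0.81 (SE 0.0583), or 1.76-fold lower. Between the VIRMA-overexpressing replicates KLF6 differed by 0.162 on the log2 scale, more than KLF2 did (0.124).

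KLF4, one of the factors used to reprogram cells to pluripotency, lies on chromosome 9 (107484852 to 107490482, minus strand). It was at 9.72 and 9.51 RPKM in the eGFP libraries and at 12.4 and 12.3 RPKM in the VIRMA libraries. Both VIRMA libraries were above both eGFP libraries, and the log2 fold change was 0.36 (SE 0.0497). KLF2 and KLF4 are close relatives that share many targets in endothelium, and here they stood on opposite sides of 0. The ratio of KLF4 to KLF2 on the RPKM scale was 0.525 and 0.506 in the eGFP libraries and 4.03 and 3.65 in the VIRMA libraries.

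KLF7, a relative of KLF6 known from neurons and fat, lies on chromosome 2 (207074137 to 207167267, minus strand). It was at 2.13 and 1.93 RPKM in the eGFP libraries and at 2.51 and 2.46 RPKM in the VIRMA libraries, without overlap. The log2 fold change was 0.29 (SE 0.0691). KLF5, a factor of proliferating epithelium on chromosome 13 (73054976 to 73077542, plus strand), was at 1.86 and 2.18 RPKM in the eGFP libraries and at 2.11 and 1.86 RPKM in the VIRMA libraries. These ranges overlap. Its log2 fold change was -0.02 (SE 0.115), and the sign turned to 0.047 with upper-quartile factors and to 0.06 with library totals as the scaling.

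KLF3, the CtBP-binding repressor among the 10, lies on chromosome 4 (38664196 to 38701042, plus strand). It was the least abundant of them in the eGFP libraries, at 1.81 and 1.63 RPKM, and reached 2.84 and 2.78 RPKM in the VIRMA libraries. This was the largest increase of the 10 genes, a log2 fold change of 0.71 (SE 0.0827), or 1.63-fold. The exons of KLF3 overlap those of KLF3-AS1 on the other strand. KLF3-AS1 had 70 and 38 counts in the eGFP libraries and 86 and 56 in the VIRMA libraries, against 947 and 861 and then 1529 and 1462 counts of KLF3. Whether the counting used strand is not stated, so reads in the shared stretch cannot be told apart.

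Among the SIN3A-binding members, 3 were lower and KLF9 was higher. KLF11, a repressor induced by TGF-beta (chromosome 2, 10042849 to 10054836, plus strand), was at 4.14 and 4.06 RPKM in the eGFP libraries and at 2.84 and 2.65 RPKM in the VIRMA libraries, without overlap. Its log2 fold change was -0.58 (SE 0.0778), and RP11-254F7.3, whose exons overlap those of KLF11 on the other strand, had 0 counts. KLF13, known from lymphocytes and the heart (chromosome 15, 31326855 to 31435665, plus strand), was at 10.6 and 10.4 RPKM in the eGFP libraries and at 8.39 and 8.17 RPKM in the VIRMA libraries. Its log2 fold change was -0.34 (SE 0.0377), the smallest standard error of the 10 genes. KLF10, the TGF-beta-inducible early gene (chromosome 8, 102648779 to 102655902, minus strand), was at 6.55 and 6.73 RPKM in the eGFP libraries and at 5.69 and 5.83 RPKM in the VIRMA libraries. Its log2 fold change of -0.21 (SE 0.0627) was the smallest among the called genes and was not called with upper-quartile factors (-0.134) or library totals (-0.122). KLF9, a target of glucocorticoid and thyroid hormone receptors (chromosome 9, 70384597 to 70414624, minus strand), was at 3.02 and 2.88 RPKM in the eGFP libraries and at 3.56 and 3.61 RPKM in the VIRMA libraries, a log2 fold change of 0.28 (SE 0.0742).

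The groups did not overlap for 5 KLF genes that were lower, where 41.6% of all tested genes did so, and for 4 that were higher, where 42.7% of all tested genes did so. The order of the levels was not the same in the groups. In the eGFP libraries it ran from KLF2 through KLF13, KLF4, KLF6, KLF10, KLF11, KLF9, KLF7 and KLF5 to KLF3, and KLF7 (2.03 RPKM) and KLF5 (2.02 RPKM) were the only neighbours in this order whose libraries overlapped. In the VIRMA libraries KLF4 was first, at 12.4 RPKM, ahead of KLF13 at 8.28 RPKM and KLF10 at 5.76 RPKM, and KLF2 was in place 6. There KLF3 (2.81 RPKM) and KLF11 (2.75 RPKM) were the only overlapping neighbours.

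The 10 KLF genes summed to 65.2 and 65.4 RPKM in the eGFP libraries and to 47.7 and 46.8 RPKM in the VIRMA libraries. Without KLF2 the sums were 46.7 and 46.6 RPKM against 44.6 and 43.4 RPKM, so most of the difference in the summed level was that of KLF2. KLF2 made up 28.4% and 28.7% of the pool in the eGFP libraries and 6.47% and 7.19% in the VIRMA libraries. The share of KLF4 was 14.9% and 14.5% in the eGFP libraries and 26.1% and 26.2% in the VIRMA libraries. The share of KLF13 moved little, from 16.2% and 16% to 17.6% and 17.5%. These are shares of a total that was smaller in the VIRMA libraries. By level, KLF4 was 1.28-fold higher there and KLF13 was lower (log2 fold change -0.34).

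**Figure D2:**
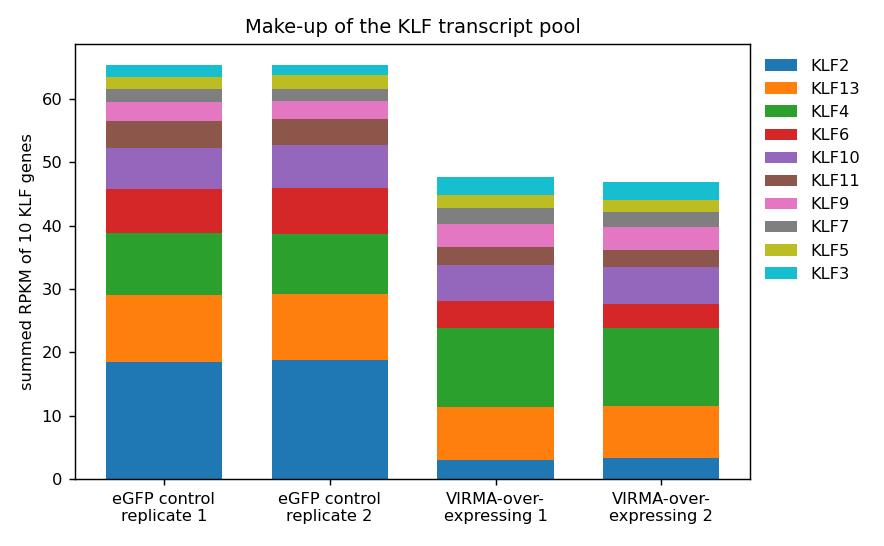
Summed RPKM of the 10 KLF genes (vertical axis) in each of the 4 libraries, stacked by gene in the order of the control levels. The control bars reach 65.2 and 65.4 and the VIRMA-overexpressing bars 47.7 and 46.8, and the KLF2 block at the foot shrinks from 28.4% and 28.7% of the bar to 6.47% and 7.19%.

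The canonical transcripts in GENCODE 44 were compared with those of 9480 tested protein-coding genes, members included. The median 3′ UTR of the KLF genes was 2750.5 bases long, against 1246 bases over all, and was longest in KLF7 at 7076 bases. ATTTA, the core of the AU-rich elements that shorten the life of early-response transcripts, occurred 4 times in the 3′ UTR of KLF2, 6 times in that of KLF6 and 20 times in that of KLF7. Per kilobase the median was 2.33 in the KLF genes and 1.57 over all. The density was 2.42 per kilobase in KLF2 and 2.22 in KLF4. The longer TATTTAT was present in 60% of the KLF genes and 33.3% of all, and occurred 1 time in KLF2 and 0 times in KLF4. Whether these elements bear on the differences in level was not tested. GGACT, a preferred form of the sequence that carries m6A, was counted over the whole transcript and occurred 3 times in KLF2, 8 times in KLF6, 4 times in KLF4, 11 times in KLF13 and 0 times in KLF10. Its median density was 1.1 per kilobase in the KLF genes and 0.935 over all. These are counts of letters, and methylation was not analysed here.

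The other 8 KLF genes were set beside them from a fixed list. Of these, 2 passed the filter. KLF8, a CtBP-binding repressor that KLF3 is known to repress, rose from 2.08 ± 0.0312 to 3.69 ± 0.0794 RPKM (SD, n = 2), a log2 fold change of 0.83 (edgeR adjusted p 3.25e-14, SE 0.0622). KLF16, a SIN3A-binding member, fell from 12.2 ± 0.694 to 8.04 ± 0.996 RPKM, a log2 fold change of -0.61 (edgeR adjusted p 4.65e-10, SE 0.0667). KLF12, with 363 to 429 counts, and KLF15 were below the filter. KLF15 had 133 and 88 counts in the eGFP libraries and 228 and 178 in the VIRMA libraries, and was called higher with the filters filterByExpr and no filter. KLF1, the erythroid member, had 0 and 7 counts in the eGFP libraries and 4 and 8 in the VIRMA libraries. KLF14 had 2 counts in all and KLF17 and KLF18 had 0.

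**Figure D3:**
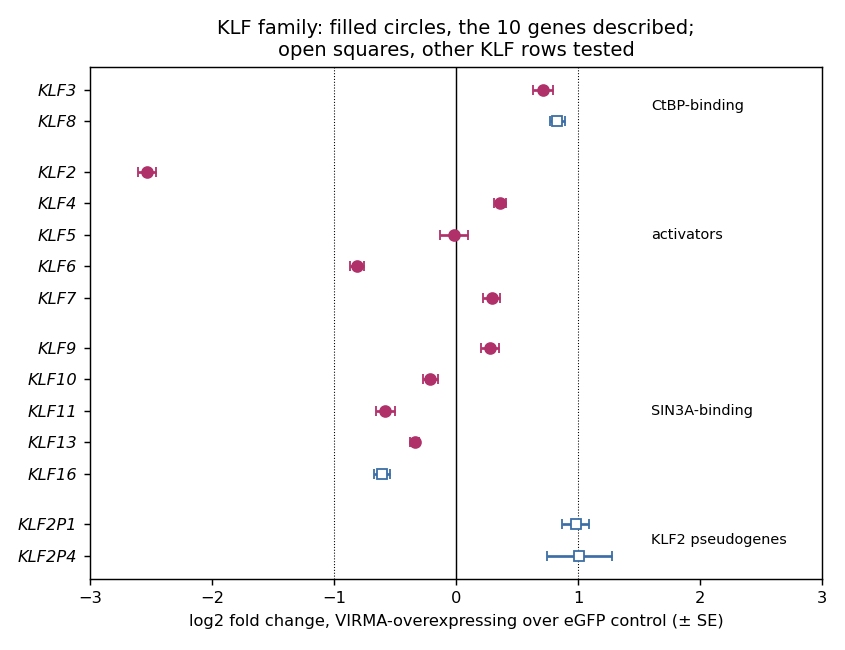
Log2 fold change of VIRMA-overexpressing over eGFP control libraries (horizontal axis, with SE) for the KLF rows that were tested, grouped by the cofactor class of the protein. Filled circles are the 10 genes described, open squares KLF8, KLF16 and the pseudogenes, and dotted lines mark -1 and 1. KLF2 lies at -2.53, and its pseudogenes KLF2P1 and KLF2P4 at 0.98 and 1.01. KLF2P4 passed the filter only through the VIRMA libraries.

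Rows of KLF pseudogenes were looked at after their values had been seen. KLF2P1, a pseudogene of KLF2 on chromosome 2, had 465 and 451 counts in the eGFP libraries and 995 and 844 in the VIRMA libraries. KLF2P1 was thus higher where KLF2 was lower. On the RPKM scale it was at 5.37 and 5.17 against 11.2 and 9.69, a log2 fold change of 0.98 (SE 0.112). KLF2P4, also on chromosome 2, had 84 and 71 counts against 151 and 165, a log2 fold change of 1.01 (SE 0.265). At 0.824 and 0.693 RPKM in the eGFP libraries and 1.44 and 1.61 RPKM in the VIRMA libraries, it passed the filter only through the VIRMA libraries. KLF2P1 aligned to the KLF2 transcript over 785 bases at 73.5% identity and KLF2P4 over 529 bases at 71.3% identity. The exons of KLF2P4 overlap those of FAR2P4 on the other strand, which had a log2 fold change of 1.03, and whether the counting used strand is not stated. The counts of KLF2P4 are therefore uncertain as a measure of that pseudogene. No row overlapped the exons of KLF2P1, though how reads with several alignments were counted is not given for either pseudogene. Each of the other KLF pseudogene rows had at most 7 counts in a library.

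The nearest tested protein-coding gene on each side of the 10 KLF genes lay 27365 to 2207123 bases away. Of these 20 neighbours, 8 were called lower, 6 were called higher and 6 were not called. CTNNAL1, next to KLF4, passed the filter only through the eGFP libraries. PIBF1, next to KLF5, and AKR1E2, next to KLF6, passed it only through the VIRMA libraries. The direction of the calls of CTNNAL1, PIBF1 and AKR1E2 was thus set by the filter. Over all tested genes, 35.9% were called lower and 35.1% higher. AP1M1 and EPS15L1, the neighbours of KLF2, were at log2 fold changes of -0.59 (edgeR adjusted p 9.27e-12, SE 0.0552) and -0.24 (edgeR adjusted p 0.000237, SE 0.0554), both far smaller than that of KLF2. Of the 18 neighbours of called KLF genes, 6 had the same call as the KLF gene and 7 the opposite call. CTNNAL1 and AKR1E2 are among those 7. RRM2, a subunit of ribonucleotide reductase next to KLF11, had the only fold change among them past 1 in size, at -2.06 (edgeR adjusted p 6.63e-32, SE 0.0386).

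The tested protein-coding genes with a pattern most like that of KLF2, by Euclidean distance of mean-centred log2 CPM over the 4 libraries, were GSTP1 (distance 0.214), GLYATL2 (0.285), SFN (0.317), NES (0.386) and INSIG1 (0.387). Their log2 fold changes ran from -2.35 to -2.16. With 4 libraries in 2 groups, such a distance mostly reflects the size of the group difference.

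The SP factors bind the same GC-rich sites as the KLF proteins. Of 9 listed, 4 were tested. SP1 rose from 13.2 ± 0.382 to 16.5 ± 0.0502 RPKM (log2 fold change 0.32, edgeR adjusted p 3.75e-10, SE 0.0353) and SP3 from 2.27 ± 0.127 to 2.9 ± 0.0181 RPKM (log2 fold change 0.35, edgeR adjusted p 4.92e-06, SE 0.0613). SP6 was at a log2 fold change of 0.07 (edgeR adjusted p 0.126) and was called higher with upper-quartile factors and library totals. SP2 fell by 0.17 on the log2 scale (edgeR adjusted p 0.0223, SE 0.0679). This call was lost without eGFP control replicate 1 and without either VIRMA-overexpressing replicate, and also with upper-quartile factors and library totals.

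Of 17 listed cofactors and ubiquitin ligases of KLF proteins, 16 were tested, of which 6 fell, 6 rose and 4 were not called. Among all tested genes 35.9% fell and 35.1% rose. The median log2 fold change of the list was 0.08, with 0 genes past a log2 fold change of 1 in size. SAP30, a subunit of the SIN3 complex, fell from 11.5 ± 0.417 to 6.33 ± 0.31 RPKM (log2 fold change -0.86, edgeR adjusted p 1.88e-10, SE 0.0907). SIN3B rose by a log2 fold change of 0.45 (edgeR adjusted p 2.1e-12, SE 0.0397) and SIN3A fell by 0.20 on the log2 scale (edgeR adjusted p 0.00196, SE 0.0554), a call that was lost with library totals. Of the CtBP corepressors, to which KLF3 and KLF8 bind, CTBP2 rose by a log2 fold change of 0.41 (edgeR adjusted p 6.13e-11, SE 0.0415). CTBP1 was lower, at a log2 fold change of -0.14 (edgeR adjusted p 0.0022, SE 0.041). This CTBP1 call was lost with upper-quartile factors and library totals. FBXO32, a ubiquitin ligase subunit that acts on KLF4, rose from 11.6 ± 0.118 to 18.1 ± 0.588 RPKM (log2 fold change 0.64, edgeR adjusted p 1.39e-17, SE 0.0365). WWP1 (0.05, edgeR adjusted p 0.352) and FBXW7 (0.13, edgeR adjusted p 0.24), which act on KLF2 and KLF5, were not called, though WWP1 was called higher with upper-quartile factors and library totals.

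Of 19 listed signalling genes upstream of KLF genes, 18 were tested, of which 5 fell, 8 rose and 5 were not called. The shares over all tested genes were 35.9% lower and 35.1% higher. The ERK5 route is known to induce KLF2 and KLF4, and its listed genes did not all move in the same direction. These are transcript levels, and the activity of the route was not tested. MAPK7, which encodes ERK5, was at 2.92 ± 0.0259 RPKM in the eGFP libraries and 3.45 ± 0.355 RPKM in the VIRMA libraries (log2 fold change 0.24, edgeR adjusted p 0.00632, SE 0.0788), a call that was lost without VIRMA-overexpressing replicate 1. MEF2D rose from 18.9 ± 1.2 to 29.9 ± 0.0264 RPKM (log2 fold change 0.66, edgeR adjusted p 4.7e-18, SE 0.0362) and MEF2A by a log2 fold change of 0.44 (edgeR adjusted p 3.46e-05), and MEF2C had at most 5 counts in a library. Of the kinases above ERK5, MAP3K3 fell by 0.43 on the log2 scale (edgeR adjusted p 1.46e-08), MAP3K2 rose by a log2 fold change of 0.53 (edgeR adjusted p 2.08e-08) and MAP2K5 was not called (0.17, edgeR adjusted p 0.0913). The TGF-beta receptor gene TGFBR1, upstream of KLF10 and KLF11, fell from 18.4 ± 0.544 to 9.22 ± 0.2 RPKM (log2 fold change -0.99, edgeR adjusted p 1.66e-22, SE 0.0382). SMAD2, which carries the TGF-beta signal, rose by 0.40 on the log2 scale (edgeR adjusted p 5.17e-10, SE 0.0444). SMAD4, also among the genes called higher, passed the filter only through the VIRMA libraries. THRA, a thyroid hormone receptor gene upstream of KLF9, fell by 0.85 on the log2 scale (edgeR adjusted p 1.57e-18, SE 0.0448). The other listed receptor genes upstream of KLF9, THRB (-0.12, edgeR adjusted p 0.245) and NR3C1 (0.14, edgeR adjusted p 0.132), were not called. NR3C1 was called higher with upper-quartile factors and library totals.

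Of 14 genes reported as KLF targets in other cells, 7 were tested, of which 3 fell, 2 rose and 2 were not called. Among all tested genes 35.9% fell and 35.1% rose. CCNB1 (-0.87, edgeR adjusted p 1.04e-20), ENG (-0.40, edgeR adjusted p 2.76e-09) and CCND1 (-0.32, edgeR adjusted p 7.64e-11) fell on the log2 scale. EDN1, also reported as a KLF2 target in endothelium, rose from 14.8 ± 0.512 to 18.3 ± 0.724 RPKM (log2 fold change 0.30, edgeR adjusted p 1.02e-05, SE 0.0558). PDGFA rose by a log2 fold change of 0.23 (edgeR adjusted p 0.018), a call that was lost without eGFP control replicate 1, without VIRMA-overexpressing replicate 2, and with the filters filterByExpr and no filter. CDKN1A, a growth arrest gene that KLF4 and KLF6 activate, was at -0.01 (edgeR adjusted p 0.96, SE 0.0866). The endothelial KLF2 targets S1PR1, THBD and NOS3 were below the filter, and S1PR1 had 0 counts. NOS3 had 342 and 388 counts in the eGFP libraries and 487 and 484 in the VIRMA libraries. It was called higher with the filters filterByExpr and no filter. CDH1, which encodes E-cadherin and is known to be lost in SKBR3 cells, had at most 33 counts in a library.

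The immediate early genes were the nearest other group, since KLF2, KLF4, KLF6 and KLF10 share their rapid induction. Of 17 listed, 14 were tested, of which 10 fell, 2 rose and 2 were not called, where 35.9% of all tested genes fell and 35.1% rose. BTG2, among those that fell, passed the filter only through the eGFP libraries (1.32 and 1.14 RPKM, against 0.788 and 0.686 in the VIRMA libraries). Their median log2 fold change was -0.60, against 0.01 over all tested genes. FOSB, from 11.5 ± 0.564 to 1.46 ± 0.0685 RPKM (log2 fold change -2.98, edgeR adjusted p 1.35e-30, SE 0.062), and NR4A1, from 35.1 ± 0.972 to 11.7 ± 0.24 RPKM (log2 fold change -1.59, edgeR adjusted p 4.4e-30, SE 0.0343), fell by the largest amounts, and KLF2 lay between them. DUSP1 (-0.92, edgeR adjusted p 3.46e-22), JUN (-0.84, edgeR adjusted p 9.99e-23), EGR1 (-0.69, edgeR adjusted p 1.08e-20) and FOS (-0.54, edgeR adjusted p 7.84e-18) fell on the log2 scale by amounts around that of KLF6 (-0.81). ATF3 (1.37, edgeR adjusted p 5.44e-25) and IER3 (0.55, edgeR adjusted p 1.62e-16) rose. KLF4 and KLF10, at 0.36 and -0.21, lay on either side of 0.

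**Figure D4:**
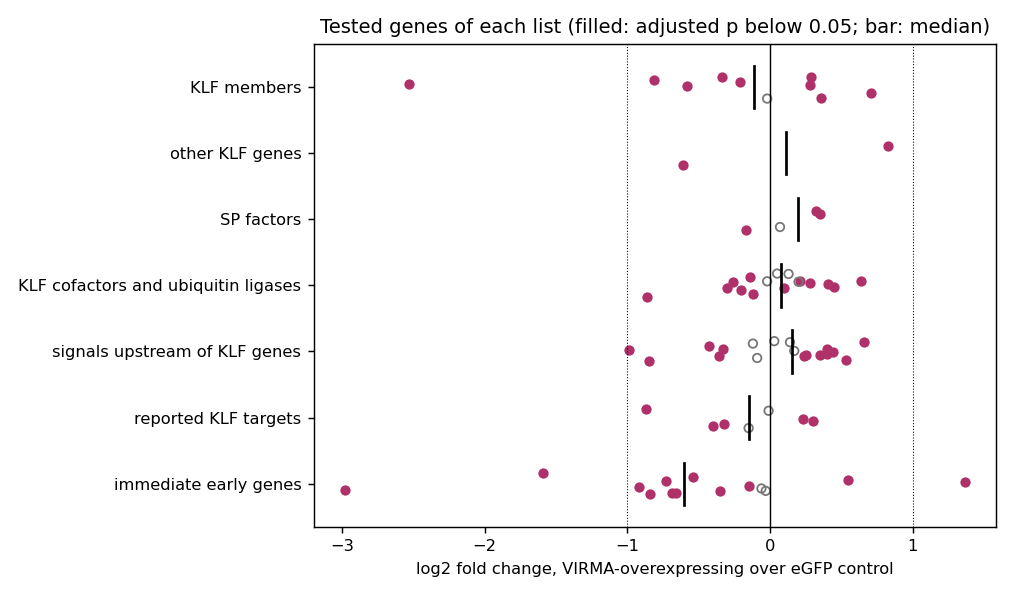
Log2 fold change of VIRMA-overexpressing over eGFP control libraries (horizontal axis) for the tested genes of each list, with points spread vertically for legibility. Filled points had an edgeR adjusted p below 0.05, open points did not, black bars are medians and dotted lines mark -1 and 1. The medians run from -0.60 for the immediate early genes to 0.20 for the SP factors, and the KLF genes have a median of -0.11.

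Since KLF2 is abundant in endothelium and lymphocytes, markers of other cells were read beside it. The 5 endothelial markers summed to 0.979 to 1.13 RPKM in the eGFP libraries and 1.29 to 1.42 RPKM in the VIRMA libraries. Most of this was CDH5, at 0.928 and 0.83 RPKM in the eGFP libraries and 1.17 and 1.27 RPKM in the VIRMA libraries. Its log2 fold change was 0.47 (SE 0.125), and it passed the filter only through the VIRMA libraries. PECAM1 had at most 12 counts. The 9 leukocyte markers summed to 0.945 to 1.09 RPKM and 0.796 to 0.962 RPKM, with PTPRC at 23 and 13 counts in the eGFP libraries and 3 and 0 in the VIRMA libraries. The 5 fibroblast markers summed to 1.34 to 1.41 RPKM and 0.863 to 0.916 RPKM, nearly all of it COL1A1. The 6 erythroid markers summed to 17.4 to 23.9 RPKM in the eGFP libraries and 0.369 to 0.46 RPKM in the VIRMA libraries, and HBB had 2137 and 1543 counts in the eGFP libraries and 0 and 0 in the others. SLC4A1 was also at 0 in both VIRMA libraries. The erythroid markers summed to 2326 and 1690 counts in the eGFP libraries, most of them HBB, and to 41 and 27 counts in the VIRMA libraries. KLF2 had 3109 and 3175 counts in the eGFP libraries and 533 and 567 counts in the VIRMA libraries. Across the groups the erythroid markers moved in the direction of KLF2, and their part in the KLF2 difference was not tested.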

How the data were processed

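Poly-A-enriched RNA was sequenced from 2 eGFP control and 2 VIRMA-overexpressing SKBR3 libraries made with a stranded kit. Per the submitters' processing notes and the methods of the study, the authors trimmed reads with Trimmomatic 0.39, aligned them to hg38 with STAR 2.5.2a and used featureCounts. What the authors deposited are raw counts for each gene, beside its exonic length. The strand setting and the treatment of reads with several alignments are not given in the sources used here. The columns of VIRMA-overexpressing cells are named by a number and were assigned as the group left after the controls, which the VIRMA counts check. Symbols of 28 rows had been turned into dates.

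RPKM was computed from counts and exonic lengths, and the 12205 genes above 1 RPKM in at least 2 of 4 libraries entered a quasi-likelihood fit in edgeR 4.0.16 (R 4.3.3) with TMM scaling and a term for group alone. P-values were adjusted by Benjamini-Hochberg over these genes. A call is an adjusted p below 0.05, and the further threshold is a log2 fold change past 1 in size. Standard errors were derived from the estimate and its F statistic. Genes below the filter take fold changes from a fit with no filter. With 2 against 2 libraries an exact permutation test of a single gene has 0.33 as its smallest p, and the model instead borrows the spread between replicates from all genes (biological coefficient of variation 3.93%). The methods of the study call the replicates biological duplicates, without saying whether these were separate transductions or cultures of the same sorted cells, and p-values measure only the spread between them. The test was checked on simulated data. The alternatives were DESeq2 1.42.0, upper-quartile factors, library totals, filterByExpr, no filter, the replicate number as a block, and leaving out each library.

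The members and the gene lists were chosen with earlier results of these data known. Named from each list were genes past both thresholds and up to 4 others with the smallest adjusted p, and those whose role the text turns on, which were chosen after their values were seen. Deposited coordinates are GRCh38.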

Additional observations from a re-analysis of the deposited data

How the results depend on the processing

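Of the 60 fold changes of the KLF genes under alternatives other than leaving out a library, 56 stayed on the same side of 0 and of the threshold. With upper-quartile factors KLF5 turned to 0.047 and KLF10, at -0.134, was no longer called. With library totals KLF5 turned to 0.06 and KLF10, at -0.122, was no longer called. The scalings themselves shift the median log2 fold change over tested genes, by 0.072 and by 0.083. KLF2 ran from -2.597 to -2.45 over all alternatives. When each library was left out in turn, where the lone library of a group is assumed to vary like the others, KLF5 reversed without eGFP control replicate 2 (0.096) and without VIRMA-overexpressing replicate 2 (0.062), within a range of -0.14 to 0.096, and the other 38 values kept direction and call. With upper-quartile factors and with library totals 4 KLF genes in place of 5 were called lower. Under the other alternatives run the count lower was 5, and under all of them the count higher was 4, with 1 lower and 0 higher past both thresholds.

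Among the lists, the other KLF genes had 2 higher in place of 1 with filterByExpr and no filter, which also test KLF15. The SP factors had 0 lower in place of 1 under both of those scalings, and 0 to 1 when libraries were left out. Cofactors and ubiquitin ligases had 3 lower in place of 6 with library totals. The reported targets had 1 to 2 higher when libraries were left out. The other list counts stayed within 1.5 times.

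Replicate numbers were not taken as pairs, since deviations of same-numbered libraries correlated across genes at 0.0755. In the fit with the replicate block, the KLF counts were 5 lower and 4 higher, KLF2 was at -2.534, and of the listed genes IER2 alone changed its call, to lower. The pseudogenes, whose alternatives were chosen after seeing the data, ran from 0.879 to 1.082 (KLF2P1) and from 0.886 to 1.133 (KLF2P4) when libraries were left out. Depth limits KLF1, KLF14, KLF17 and KLF18, whose few or 0 counts left a difference not detectable at this depth.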
